A study of Saccharomyces cerevisiae with 8 samples.

Results

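Haploid budding yeast comes in 2 mating types, MATa and MATalpha, and each transcribes a small set of genes that the other keeps silent. The 10 mating-type specific genes described here were chosen by name from the 6569 genes of the deposited table. All 10 had a row. MFA1, MFA2, STE2, STE6, BAR1 and AGA2 are a-specific, and MF(ALPHA)1, MF(ALPHA)2, STE3 and SAG1 are alpha-specific. All 10 passed the filter on low signal, a mean of at least 1 over the 6 wild-type libraries.

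Each cell type secretes a peptide pheromone and carries the receptor for the pheromone of the other type. A MATa cell makes a-factor and detects alpha-factor, and a MATalpha cell does the reverse. Binding of pheromone starts a G protein and MAP kinase cascade that ends at the transcription factor Ste12, arrests the cell cycle and turns on genes for cell fusion. The a-specific genes are active by default through the factor Mcm1, and in MATalpha cells the repressor alpha2 binds beside Mcm1 and shuts them off. The alpha-specific genes need the activator alpha1, which is expressed from the alpha mating-type locus, together with Mcm1.

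RNA-seq of poly(A) RNA, in libraries that keep the strand, covered 8 cultures in YPD, a rich medium, at an optical density of 0.5. The laboratory wild type BY4741 was grown at 30 °C, with 2 libraries each left untreated, given 200 ng/mL rapamycin for 10 min and given it for 60 min. BY4741 is MATa and carries his3-delta-0 and leu2-delta-0 as well as met15-delta-0 and ura3-delta-0. Rapamycin inhibits the growth-regulating kinase complex TORC1. The prp4-1 library came from a MATalpha strain with a mutation in the splicing factor gene PRP4, which also carries ade2-, a mutant leu2 allele, ura3-52 and his3-delta-200. It was grown at 26 °C. The prp4-1 pGAL-IFH1 library (k-HIS3:pGAL1-IFH1, also prp4-1 and at 26 °C) has IFH1, which encodes an activator of ribosomal protein genes, under the GAL1 promoter. IFH1 is labelled as about 50% lowered in it, and its label gives no mating type. These last libraries are called the prp4-1 pair here, and each of the 2 genotypes had 1 library.

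Values are the scaled signal of the authors, one value per gene and library. The total of a library lay between 2025663 and 3319861 and was lowest in the 60 min libraries, and how many reads stand behind a value is not known. In the prp4-1 pair IFH1 was at 86.1 in the pGAL-IFH1 library and at 154 in the prp4-1 library. LEU2 was at 622 and 1386 in these libraries, against 0 to 1.84 in wild type, where the gene is deleted. URA3 was listed at 0 in the pGAL-IFH1 library and at 111 in the prp4-1 library. MET15, a gene of methionine synthesis, was also listed at 0 in the pGAL-IFH1 library and at 1495 in the prp4-1 library. The 2 genotypes of the pair therefore differed at more markers than IFH1. In bulk samples, fewer cells of a type and less RNA per cell cannot be told apart.

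The 6 a-specific genes share a DNA element, the a-specific operator, at which Mcm1 binds with alpha2 on either side. The stretches that hold it are printed from the R64 reference genome, each on the coding strand of its gene and 5′ to 3′, because they are what the members have in common that the choice by name did not use. Capitals mark the operator letters and lower case the 12 bases on either side.
MFA1: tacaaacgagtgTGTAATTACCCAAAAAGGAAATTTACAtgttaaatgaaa
MFA2: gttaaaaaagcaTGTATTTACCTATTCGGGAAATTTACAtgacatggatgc
STE2: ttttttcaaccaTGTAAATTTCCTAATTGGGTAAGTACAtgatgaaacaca
STE6: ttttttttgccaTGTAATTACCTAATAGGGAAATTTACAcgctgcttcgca
BAR1: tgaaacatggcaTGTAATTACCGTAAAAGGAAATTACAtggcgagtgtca
AGA2: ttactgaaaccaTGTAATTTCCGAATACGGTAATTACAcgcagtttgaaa
They lie at chrIV:1384932-1384982 (plus strand, MFA1), chrXIV:352153-352203 (plus, MFA2), chrVI:82341-82391 (plus, STE2), chrXI:46467-46517 (minus, STE6), chrIX:322068-322117 (plus, BAR1) and chrVII:437092-437141 (minus, AGA2). The first operator base lies between 210 bases (STE6) and 296 bases (AGA2) before the ATG.

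The letters searched were TGT, 5 bases of any kind, CC, 6 of any kind, GG, 4 of any kind and TTACA, which matched before MFA1, MFA2, STE2 and STE6. A form 1 base shorter, with 3 bases of any kind between GG and TTACA, matched before BAR1 and AGA2. Both were searched on both strands in the 400 bases before the ATG, and letters and window were set after reading these sequences. The STE2 match stands on the strand opposite to the one printed. Of 6001 such upstream regions, 8 held one of the forms (0.133%). They were those of the 6 a-specific genes and those of SWC5 and PBP2. SWC5 (chrII:682179-683090, minus strand) and PBP2 (chrII:683428-684669, plus strand) are divergent neighbours with overlapping upstream regions. Their matches can therefore be a single site seen from both genes. SWC5 had 138 and 153 in the pGAL-IFH1 and prp4-1 libraries, against 128 to 183 in wild type. PBP2 had 136 and 177, against 93.9 to 147 in wild type. Neither of these genes showed the strain contrast described below. The Ste12 element TGAAACA lay upstream of all 6 a-specific genes and of 1 of the 4 alpha-specific genes, against 9.87% of all upstream regions. A match is a description of letters and not a measured binding site.

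Of the alpha-specific genes, 3 are shown for letters of the elements at which Mcm1 and alpha1 act together. The P box letters CCTAATTAG stood in 21 of 6001 upstream regions (0.35%), among them those of MF(ALPHA)1, STE3 and SAG1. The Q-box core letters CAATGNCA stood in 5.78%, among them those of STE3 and SAG1 but not that of MF(ALPHA)1. In the stretches printed next, capitals mark either set of letters on either strand, and the P box letters on the 2 strands overlap where the capitals run to 10 bases.
MF(ALPHA)1: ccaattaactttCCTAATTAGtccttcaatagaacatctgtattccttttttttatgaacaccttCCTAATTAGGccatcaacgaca
STE3: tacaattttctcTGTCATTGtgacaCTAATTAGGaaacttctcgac
SAG1: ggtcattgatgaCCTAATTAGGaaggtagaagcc
They lie at chrXVI:193274-193360 (plus strand, MF(ALPHA)1), chrXI:114934-114979 (minus, STE3) and chrX:445186-445219 (minus, SAG1). In STE3 the P box and the Q-box letters both stand on the strand opposite to the one printed. In SAG1 the Q-box letters lie nearer the ATG, outside the stretch shown.

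The members' levels separated the strains without overlap. All 4 alpha-specific genes were higher in both libraries of the prp4-1 pair than in each of the 6 wild-type libraries, and all 6 a-specific genes were lower in both than in each of them. Over all 6176 genes with a mean of at least 1 in the 8 libraries, 26.2% had the prp4-1 pair above every wild-type library and 3.79% had every wild-type library above the pair. Summed over the 4 alpha-specific genes, signal was 39544 in the pGAL-IFH1 library and 28535 in the prp4-1 library, against 45.9 to 92.3 in wild type. The sum over the 6 a-specific genes was 116 and 168 in these libraries, against 3297 to 5751 in wild type. The markers thus matched the labelled mating types, and they put the pGAL-IFH1 library with the MATalpha library.

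Strain background, mating type, the prp4-1 mutation and temperature differ together between these sets and cannot be told apart, and no test was made. The gap given for each gene is the log2 distance, on log2 of scaled signal plus 1, between the nearest libraries of the 2 sets. A gap of at least 3 with the prp4-1 pair higher was found for 10 of 6176 genes (0.162%), and one with wild type higher for 14 (0.227%). All 4 alpha-specific genes and 4 of the 6 a-specific genes were among these.

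MF(ALPHA)1 and MF(ALPHA)2 encode the precursors of alpha-factor. MF(ALPHA)1 (chrXVI:193648-194145, plus strand) had 21822 in the pGAL-IFH1 library and 13001 in the prp4-1 library. In wild type it had 3.25 and 5.02 untreated, 1.92 and 12.7 at 10 min and 2.13 and 15.5 at 60 min. MF(ALPHA)2 (chrVII:344791-345153, minus strand) had 14351 in the pGAL-IFH1 library and 12044 in the prp4-1 library. Its wild-type values were 1.52 and 3.09 untreated, 1.96 and 13.0 at 10 min and 2.27 and 8.62 at 60 min. Their gaps of 9.62 and 9.75 were the widest in that direction among all 6176 genes. Mean wild-type signal came to 0.0388% of the prp4-1 pair mean for MF(ALPHA)1 and to 0.0385% for MF(ALPHA)2.

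STE3 encodes the a-factor receptor, which MATalpha cells carry. STE3 (chrXI:113215-114627, minus strand) had 1629 in the pGAL-IFH1 library and 1008 in the prp4-1 library. In wild type it had 9.19 and 8.34 untreated, 10.4 and 9.82 at 10 min and 14.6 and 12.5 at 60 min. SAG1 encodes alpha-agglutinin, the adhesion protein of MATalpha cells. SAG1 (chrX:442909-444861, minus strand) had 1741 in the pGAL-IFH1 library and 2482 in the prp4-1 library. Its wild-type values were 32.0 and 35.1 untreated, 36.5 and 39.1 at 10 min and 48.4 and 55.6 at 60 min. The gaps were 6.02 for STE3 and 4.94 for SAG1, and wild type held 0.820% and 1.95% of the prp4-1 pair mean. Wild-type signal of SAG1 was thus low against the pair and well above 0 in every library.

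**Figure D1:**
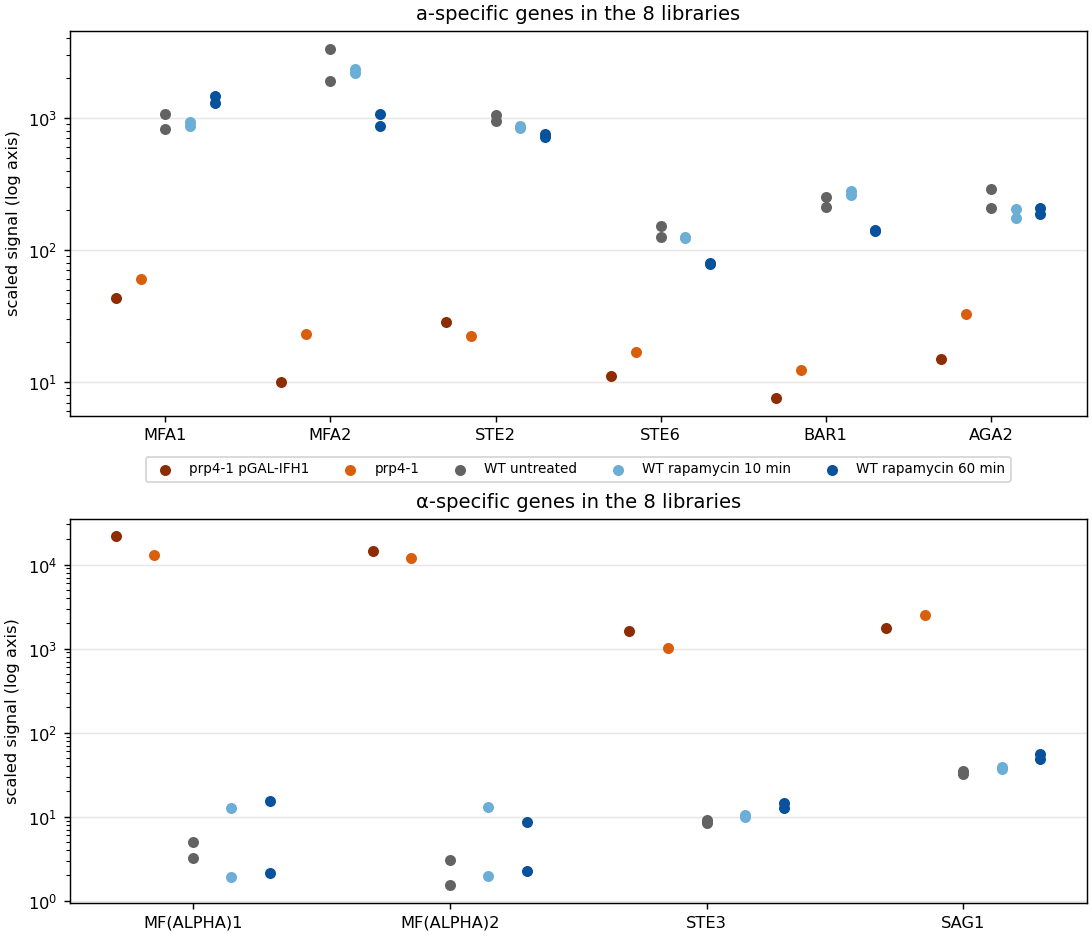
Scaled signal (log axis) of the 6 a-specific genes (top) and the 4 alpha-specific genes (bottom), 1 point per library, with the prp4-1 pGAL-IFH1 and prp4-1 libraries left of the wild-type libraries untreated, at 10 min and at 60 min of rapamycin. The prp4-1 pair lies below every wild-type point for the a-specific genes and above every one for the alpha-specific genes.

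Among the a-specific genes, MFA1 and MFA2 encode the precursors of a-factor. MFA1 (chrIV:1385176-1385286, plus strand) had 43.4 in the pGAL-IFH1 library and 60.4 in the prp4-1 library. In wild type it had 821 and 1073 untreated, 866 and 936 at 10 min and 1310 and 1478 at 60 min. MFA2 (chrXIV:352414-352530, plus strand) had 10.0 in the pGAL-IFH1 library and 23.0 in the prp4-1 library. Its wild-type values were 3347 and 1913 untreated, 2197 and 2333 at 10 min and 863 and 1065 at 60 min. The gap was 3.74 for MFA1 and 5.17 for MFA2. The mean of the prp4-1 pair came to 4.80% of the wild-type mean for MFA1 and to 0.844% for MFA2.

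STE2 encodes the alpha-factor receptor. STE2 (chrVI:82580-83875, plus strand) had 28.7 in the pGAL-IFH1 library and 22.5 in the prp4-1 library. In wild type it had 957 and 1058 untreated, 833 and 865 at 10 min and 720 and 763 at 60 min. The gap was 4.60, and the prp4-1 pair held 2.96% of the wild-type mean. STE6 encodes the transporter that exports a-factor. STE6 (chrXI:42423-46295, minus strand) had 11.1 in the pGAL-IFH1 library and 16.9 in the prp4-1 library. Its wild-type values were 125 and 152 untreated, 124 and 126 at 10 min and 78.2 and 79.1 at 60 min. It had the narrowest gap of the 10 genes, 2.15, and the prp4-1 pair held 12.3% of the wild-type mean.

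BAR1 encodes the secreted protease that degrades alpha-factor. BAR1 (chrIX:322342-324105, plus strand) had 7.57 in the pGAL-IFH1 library and 12.3 in the prp4-1 library. In wild type it had 211 and 251 untreated, 278 and 260 at 10 min and 139 and 143 at 60 min. AGA2 encodes the binding subunit of a-agglutinin, the adhesion protein of MATa cells. AGA2 (chrVII:436570-436833, minus strand) had 14.9 in the pGAL-IFH1 library and 32.9 in the prp4-1 library. Its wild-type values were 290 and 209 untreated, 176 and 204 at 10 min and 188 and 210 at 60 min. The prp4-1 pair held 4.65% of the wild-type mean for BAR1 and 11.2% for AGA2, with gaps of 3.39 and 2.38. No a-specific gene was at 0 in either library of the pair.

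Under each of the 2 other scalings of the 8 libraries, all 10 genes stayed apart without overlap. The deposited scaling left the median gene 0.35 higher on the log2 scale in the prp4-1 pair than in wild type, which is small beside these gaps.

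**Figure D2:**
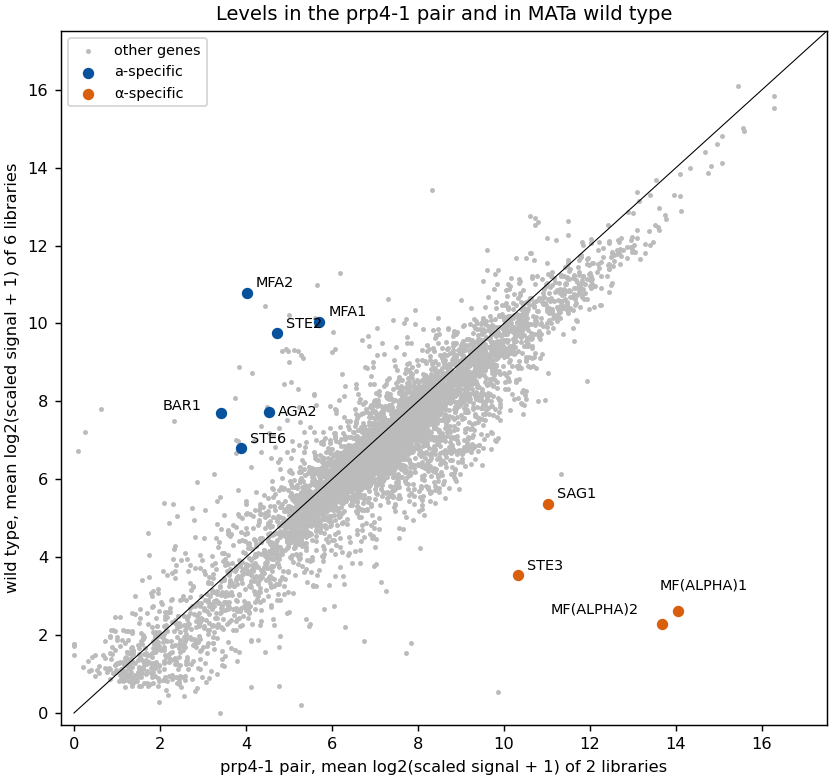
Mean log2(scaled signal + 1) of each gene in the 2 libraries of the prp4-1 pair (x) against the 6 wild-type libraries (y), with the 10 members coloured and named and the line of equal level. The alpha-specific genes lie far below the line and the a-specific genes above it, away from most of the other genes.

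The genes that are no members with the widest gaps were looked at in the same way. With the prp4-1 pair higher they were LEU2 (gap 7.78), YCL065W (5.78), YCR041W (5.44), AFB1 (4.09) and SFK1 (3.27). YCL065W covers all 528 bases of the alpha1 gene at the silent locus HML, and YCR041W all 528 bases of the alpha1 gene at MAT. YCL065W had 259 and 171 in the pGAL-IFH1 and prp4-1 libraries, against 1.68 to 2.14 in wild type. These copies are identical in R64, so their signals cannot be assigned to one locus, and the alpha1 genes themselves were not analysed here. AFB1, which encodes a barrier protein that MATalpha cells secrete against a-factor and appears in the table as YLR040C, had 3203 in the pGAL-IFH1 library and 2022 in the prp4-1 library. In wild type AFB1 ran from 41.9 to 118.

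With wild type higher, the widest gaps were those of YBR012C (6.35), HMRA1 (6.27), YBR013C (6.16), YPL272C (4.44) and TIR1 (4.27). HMRA1 encodes the a1 protein, and R64 holds alpha information at MAT, so a1 transcripts of a MATa cell have this silent copy as their match. It had 0 in the pGAL-IFH1 library and 1.37 in the prp4-1 library, against 181 to 284 in wild type. The alpha2 gene was less cleanly split. HMLALPHA2 had 400 and 574 in the pGAL-IFH1 and prp4-1 libraries, against 76.0 to 137 in wild type. It shares its whole length of 633 bases with MATALPHA2 and 360 bases with HMRA2, a partial copy next to a1, so these 3 genes are uncertain. ASG7, another gene of MATa cells, had 2.91 and 5.60 in the pGAL-IFH1 and prp4-1 libraries, against 6.19 to 17.8 in wild type.

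Genes that both mating types use in mating were also higher in the prp4-1 pair for part of their lists. Of the 17 pheromone-induced mating genes, 10 had both libraries of the pair above every wild-type library and 1 had both below. Of 10 haploid-specific genes 6 lay above and none below, and of the 14 shared signalling genes 6 lay above and none below. Under median-of-ratios factors over the 8 libraries, which gave 490 genes above and 723 below over all genes where the deposited scaling gave 1619 and 234, these counts were 9 above and 1 below, 6 above and 1 below, and 4 above and 3 below. FUS1, a cell fusion gene, had 123 in the pGAL-IFH1 library and 135 in the prp4-1 library, against 8.50 to 21.0 in wild type. AGA1, the anchor subunit to which Aga2 is bound, had 234 and 486, against 28.3 to 55.7 in wild type. Genes of the list were thus high in the same libraries that hold the alpha-specific genes, and the part of strain or temperature in this was not tested.

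Between the genotypes of the pair there is 1 library each and no replicate check. Log2 ratios of the pGAL-IFH1 library over the prp4-1 library were 0.75 for MF(ALPHA)1, 0.25 for MF(ALPHA)2, 0.69 for STE3 and -0.51 for SAG1. No alpha-specific gene differed by 2-fold. Among the a-specific genes, MFA2 (-1.12) and AGA2 (-1.09) were at least 2-fold lower, while MFA1 (-0.47), STE6 (-0.56), BAR1 (-0.63) and STE2 (0.34) were within 2-fold. Over 6222 genes, 11.5% were at least 2-fold lower and 8.5% at least 2-fold higher. With a pseudocount of 5 no a-specific gene was 2-fold lower, and with each library scaled to the same total 1 was.

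The pheromone-induced list was the one with the most genes past 2-fold in the pair. Of its 17 genes, 7 were at least 2-fold lower in the pGAL-IFH1 library and none was 2-fold higher, against 11.5% lower and 8.5% higher over all genes. The list median was -0.75, against 0.00 over all genes. Some of the 7 were low, and with a pseudocount of 5 the count was 5 of 17, against 9.5% of all genes. With equal totals it was 6. FIG1, a membrane protein gene of mating cells, had 3.63 in the pGAL-IFH1 library and 15.7 in the prp4-1 library. AGA1 had a log2 ratio of -1.05, and PRM1, which encodes a membrane fusion protein, one of -1.36. The genotypes also differed at URA3 and MET15, and the part of these markers was not tested. The shared signalling genes had a median ratio of 0.10, and none of the 14 reached 2-fold.

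Rapamycin was compared in wild type with limma, in a fit of all 6 libraries to log2 of scaled signal plus 1, with p-values adjusted by Benjamini-Hochberg over all 6127 genes tested and calls at an adjusted p under 0.05. After 10 min few of the members were called. Of the 6 a-specific genes 1 was lower and none higher, and none of the 4 alpha-specific genes was called, while 57% of all genes tested were called, 26.8% higher and 30.2% lower. STE2 averaged 849 ± 22.2 at 10 min and 1007 ± 71.4 untreated (SD, n = 2 each), so it fell by 0.25 on the log2 scale (SE 0.0786, limma adjusted p = 0.0300). The 2 groups did not overlap. This call ended when any of 5 of the 6 libraries was left out (adjusted p 0.0591 to 0.145 in limma) or with only the compared groups in the fit (0.0578). With each library scaled to the same total, STE2 was at -0.03 and was not called (limma adjusted p = 0.793).

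The other a-specific genes had log2 changes at 10 min between -0.38 (AGA2) and 0.22 (BAR1). For BAR1 (limma adjusted p = 0.0750) and AGA2 (limma adjusted p = 0.0686) the 10 min and untreated libraries did not overlap, as for 76.8% of all genes tested. With each library scaled to the same total, BAR1 (0.44, limma adjusted p = 0.00472) and SAG1 (0.38, limma adjusted p = 0.0196) were called higher. Without the untreated library numbered 24, MFA2 (-0.56) and AGA2 (-0.61) were called lower and BAR1 (0.35) higher. Without the untreated library numbered 21, MFA2 turned to 0.24, AGA2 (-0.14) and BAR1 (0.10) were not called, and STE6 (-0.28) was called lower. The untreated libraries thus differed enough to decide these calls at 10 min.

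After 60 min the a-specific genes had moved in different directions. MFA1 was higher, MFA2, STE2, STE6 and BAR1 were lower, and AGA2 was not called, on the deposited scaling. With each library scaled to the same total, STE2 and AGA2 turned to higher and STE6 and BAR1 were no longer called, as given further on. On the deposited scaling 1 was higher and 4 lower of 6, where 77.1% of all genes tested were called, 38.6% higher and 38.5% lower. The 60 min and untreated libraries did not overlap for these 5 genes, as for 88.1% of all genes tested. The median change of the list was -0.57, against 0.00 over all genes tested.

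MFA2 averaged 964 ± 143 at 60 min and 2630 ± 1014 untreated (SD, n = 2 each), and so fell by 1.40 on the log2 scale (SE 0.235, limma adjusted p = 0.000845). Both 60 min libraries lay below both untreated ones, whose own values were 3347 and 1913. STE6 averaged 78.7 ± 0.619 at 60 min and 138 ± 19.2 untreated, a change of -0.80 (SE 0.0969, limma adjusted p = 0.00013), but was at -0.13 and not called with equal library totals. BAR1 averaged 141 ± 2.83 at 60 min and 231 ± 28.4 untreated, a change of -0.71 (SE 0.0932, limma adjusted p = 0.000208), and was at -0.03 and not called with equal totals. Between 10 and 60 min, 3 of the 6 a-specific genes were lower and 1 higher, where 69.2% of all genes tested were called, 33.8% lower and 35.4% higher. The changes of the 3 lower ones were -1.24 for MFA2, -0.66 for STE6 and -0.93 for BAR1 (limma adjusted p = 0.00212, 0.000552 and 6.95e-05). Their libraries did not overlap between these times, as for 87% of all genes tested.

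STE2 averaged 741 ± 30.5 at 60 min and 1007 ± 71.4 untreated, a change of -0.44 (SE 0.0786, limma adjusted p = 0.00118). Its levels ran in one order over the 3 times with no overlap, and the step between 10 and 60 min, -0.20, missed the threshold (limma adjusted p = 0.0561). AGA2 averaged 199 ± 15.4 at 60 min and 250 ± 57.4 untreated, with overlapping libraries and a change of -0.31 (SE 0.153, limma adjusted p = 0.0969). Without the untreated library numbered 24 this became -0.55, an effect size that rests on 1 untreated library. The untreated libraries numbered 21 and 24 had 290 and 209, against 188 and 210 at 60 min.

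The 2 a-factor genes parted. MFA1 averaged 1394 ± 119 at 60 min and 947 ± 178 untreated, a change of 0.57 (SE 0.131, limma adjusted p = 0.0047), and 60 min exceeded 10 min by 0.63 (limma adjusted p = 0.00346). Within a library the ratio of MFA1 to MFA2 does not depend on the scaling. It was 0.245 and 0.561 in untreated libraries, 0.394 and 0.401 at 10 min and 1.518 and 1.388 at 60 min. Both 60 min libraries stood above all 4 others. The log2 ratio was 1.97 higher at 60 min than untreated and 1.87 higher than at 10 min, with an exact two-sided permutation p of 0.333 each, the smallest that 2 against 2 libraries allow. In the pGAL-IFH1 and prp4-1 libraries, where both genes were low, the ratio was 4.334 and 2.629.

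**Figure D3:**
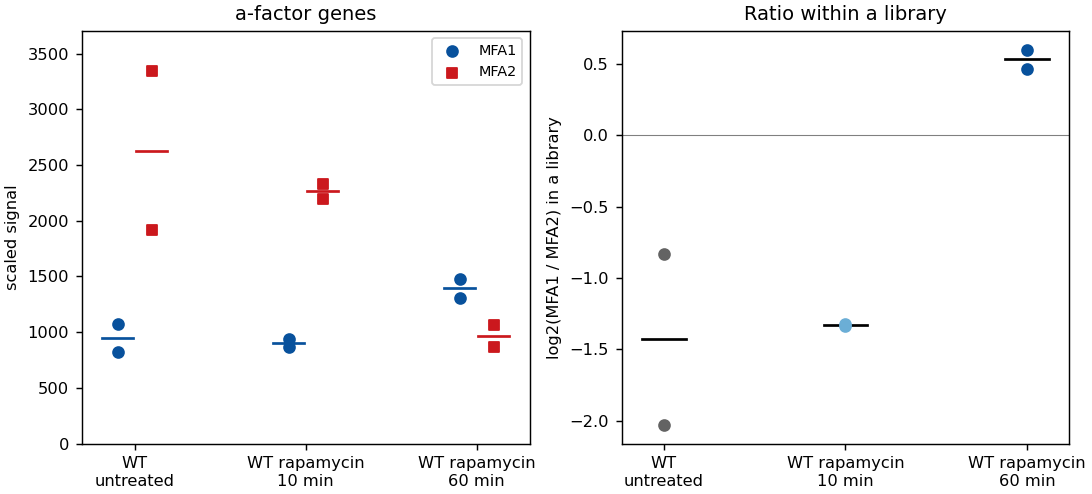
Scaled signal of MFA1 (circles) and MFA2 (squares) in the wild-type libraries (left) and log2 of their ratio within each library (right), untreated and after 10 and 60 min of rapamycin. Points are libraries and short lines the means of 2, and the log2 ratio lies below 0 in 4 libraries and above it in the 2 libraries of 60 min.

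The coding sequences of the 2 genes are shown because their signals were compared within libraries and short, similar genes can share reads. Capitals mark the longest run of bases that they share.
MFA1: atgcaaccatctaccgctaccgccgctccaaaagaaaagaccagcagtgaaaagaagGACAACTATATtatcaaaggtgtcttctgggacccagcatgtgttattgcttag
MFA2: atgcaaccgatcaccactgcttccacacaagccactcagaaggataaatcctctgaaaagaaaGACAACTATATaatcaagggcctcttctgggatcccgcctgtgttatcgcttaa
They are 111 and 117 bases long at the positions given above, on the plus strand of R64. Aligned, they were 79.6% identical, the longest shared run was 11 bases, and no stretch of 36 bases was common to both. MF(ALPHA)1 and MF(ALPHA)2 were 72.5% identical over 360 aligned bases, with a longest shared run of 23 bases and no common stretch of 36.

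The alpha-specific genes that MATa cells hold at a low level were higher after 60 min for 2 of 4, with none lower, a share near the 38.6% of all genes tested that were higher. SAG1 averaged 52.0 ± 5.11 at 60 min and 33.5 ± 2.21 untreated (SD, n = 2 each), a change of 0.62 (SE 0.101, limma adjusted p = 0.000739). Both 60 min libraries lay above the other 4. The 60 min time also exceeded 10 min by 0.45 (limma adjusted p = 0.00504). STE3 averaged 13.6 ± 1.43 at 60 min and 8.76 ± 0.599 untreated, a change of 0.57 (SE 0.141, limma adjusted p = 0.00633). Without the 60 min library numbered 23 the STE3 change was 0.47 and was not called (limma adjusted p = 0.0604). STE3 was 0.39 higher at 60 min than at 10 min (limma adjusted p = 0.0403), a call that ended without any of the 4 libraries compared. At 60 min SAG1 stood at 52.0 and STE3 at 13.6, where the prp4-1 pair had at least 1741 and 1008.

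MF(ALPHA)1 and MF(ALPHA)2 were not called at any time in wild type. Their changes at 10 min were 0.32 (SE 0.876) and 1.00 (SE 0.755), with limma adjusted p = 0.775 and 0.292. At 60 min they were 0.51 (SE 0.876) and 0.81 (SE 0.755), with limma adjusted p = 0.611 and 0.355. In each wild-type group the library with the higher number (24, 25 or 26) had the higher signal of both genes. MFA1, STE2, STE6 and SAG1 had this order in each group too, and MFA2, BAR1, AGA2 and STE3 did not. For MF(ALPHA)1 and MF(ALPHA)2 the spread in the 10 and 60 min groups was wider than any difference between the times, and its part was not tested.

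**Figure D4:**
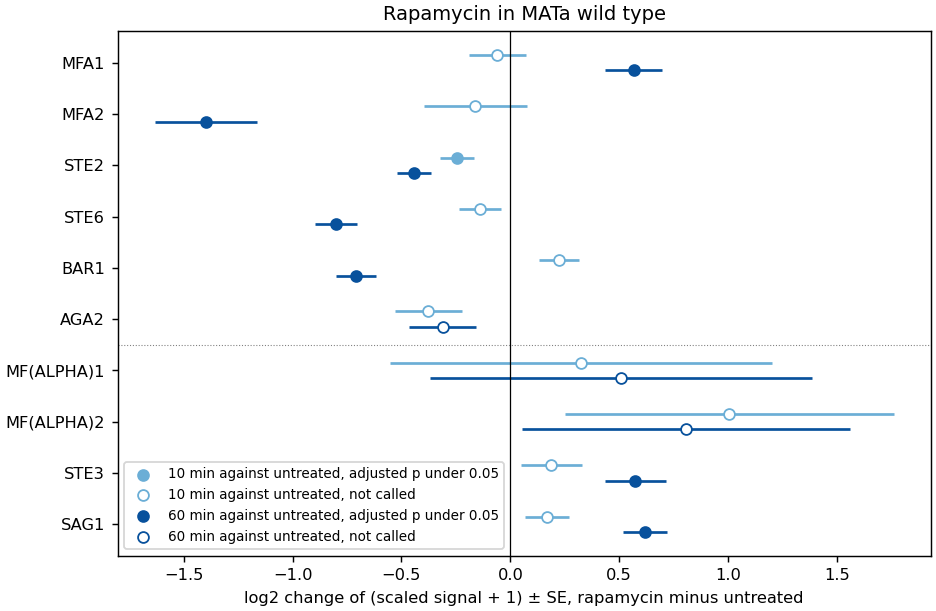
Log2 change of scaled signal plus 1 (point) and its SE (bar) for the 10 members after 10 min (light) and 60 min (dark) of rapamycin against untreated wild type. Filled points were called by limma at an adjusted p under 0.05. On the deposited scaling MFA1 lies at 0.57 and the other a-specific genes below 0 at 60 min (STE2 and AGA2 are above 0 with equal library totals), and STE3 and SAG1 are the alpha-specific genes called.

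The direction of several a-specific genes rested on the scaling of the libraries. Scaling each library to the same total shifted the median gene up by 0.66 at 60 min and by 0.21 at 10 min. It called 4003 genes higher and 1121 lower at 60 min, where the deposited scaling called 2365 and 2360, and 2560 higher and 1149 lower at 10 min, where the deposited scaling called 1645 and 1848. On that scale MFA1 (1.25), SAG1 (1.28) and STE3 (1.20) were still called higher at 60 min and MFA2 (-0.72) lower. STE6 (-0.13) and BAR1 (-0.03) were no longer called, and STE2 (0.24) and AGA2 (0.37) turned to higher. Relative to the shifted median of all genes, these last 4 lay below it on both scales.

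The rest of the mating pathway was examined by 7 lists of 66 genes, of which 63 had a row. At 10 min, 7 of 10 haploid-specific genes were lower and 1 higher, where 30.2% of all genes tested were lower and 26.8% higher. FUS3, the MAP kinase of mating, changed by -0.92, FAR1, which arrests the cell cycle in response to pheromone, by -0.84, and RME1, a repressor of meiosis, by 1.08. Of 7 regulators and silencing genes 5 were lower and 1 higher, beside the same shares over all genes. SIR2, a silencing deacetylase gene, changed by -0.86, MCM1 by -0.80 and SIR1, another silencing gene, by 0.30. All of these passed limma at an adjusted p under 0.05, and with each library scaled to the same total 3 of 10 haploid-specific genes and 3 of 7 regulators were lower, with 1 higher in each.

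MCM1, whose product binds at both sets of promoters, was lower at both times. It had 477 and 333 untreated, 209 and 251 at 10 min and 144 and 152 at 60 min, with no overlap between the times. The change at 60 min was -1.42 (limma adjusted p = 9.39e-05), and -0.75 with each library scaled to the same total. TUP1, a corepressor gene, changed by -1.14 at 60 min, with 98.1 and 107 at 60 min against 234 and 220 untreated. SIR1 (1.22) and SIR3 (0.69) were higher. The list had 2 genes higher and 3 lower of 7 at 60 min, where 38.6% of all genes tested were higher and 38.5% lower. With equal library totals it had 4 higher and 3 lower.

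Haploid-specific genes had 2 higher and 5 lower of 10 at 60 min, where 38.6% of all genes tested were higher and 38.5% lower, so the number called was near that over all genes. RME1 stood at 1009 and 1015 at 60 min against 242 and 251 untreated (log2 change 2.03), and RDH54, a recombination gene, changed by 0.47. HO, which encodes the endonuclease of mating-type switching, stood at 29.8 and 30.9 at 60 min against 163 and 197 untreated (-2.52), and FAR1 changed by -1.61. Of the shared signalling genes 6 were higher and 6 lower of 14, with 77.1% called over all genes tested. The kinase genes STE7 (0.95) and STE11 (0.76) were the highest, and STE12 (-1.29) and the kinase gene STE20 (-1.17) the lowest. All 8 genes were called by limma and kept their sign with each library scaled to the same total.

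At 10 min, 5 of the shared signalling genes were higher and 4 lower, where 26.8% of all genes tested were higher and 30.2% lower. DIG2, an inhibitor of Ste12, changed by 0.38 and AKR1 by 0.37, and STE20 by -0.97 and SST2, which desensitizes the pathway, by -0.69. Of the pheromone-induced mating genes 15 of 17 passed the filter on low signal. At 10 min 2 of the 15 were higher and 4 lower, beside the same shares over all genes. CIK1, a partner of the Kar3 motor, was at 0.64, the chitin synthase gene CHS1 at 0.48, AGA1 at -0.68 and FIG2 at -0.54. At 60 min 4 were higher and 5 lower, where 38.6% of all genes tested were higher and 38.5% lower. PRM5 (2.50) and PRM1 (1.43) were the highest, and FUS2 (-1.22) and KAR3 (-0.79) the lowest. On the deposited scaling the list therefore had no common direction, and AGA1 and AGA2, whose products form one adhesion protein, were not called at 60 min. With each library scaled to the same total, 5 of the 15 were higher and 1 lower at 10 min. At 60 min 11 were then higher and 1 lower, and AGA2 was called higher. Most of all genes called were also higher on that scale. FIG2 (-0.34) at 10 min and KAR3 (-0.12) at 60 min were no longer called on it.

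The enzymes that mature the pheromones had 1 gene higher and 5 lower of 9 at 60 min, where 38.6% of all genes tested were higher and 38.5% lower, with a median of -0.34. RCE1 (-0.81) and STE14 (-0.58), which process a-factor, were the lowest and RAM1 (0.24), a farnesyltransferase subunit gene, was higher. With each library scaled to the same total, 5 were higher and none lower, and STE14 was at 0.10. At 10 min 2 were higher and 2 lower, where 26.8% of all genes tested were higher and 30.2% lower. STE13 (0.51) and RAM1 (0.31) were higher, and KEX2 (-0.37) and STE23 (-0.26), both protease genes, were lower. KEX2 and STE13 act on alpha-factor and STE23 on a-factor. The KEX2 (-0.16) and STE23 (-0.04) changes were not called on the total scale.

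Of the mating-type loci, HMLALPHA2 (0.54) and MATALPHA2 (0.45) were higher at 60 min, 2 of the 4 with a row, where 38.6% of all genes tested were higher. HMRA1 (0.09) and HMRA2 (0.62, limma adjusted p = 0.0664) were not called. With each library scaled to the same total all 4 were called higher, with a median of 1.17. The sequence shared by MATALPHA2, HMLALPHA2 and HMRA2 leaves the signals of these genes uncertain, and the deposited span of MATALPHA2 overlaps BUD5. ASG7 was higher at both times, by 0.98 at 10 min and 1.16 at 60 min. AFB1 changed by -0.54 at 10 min and 0.87 at 60 min.

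**Figure D5:**
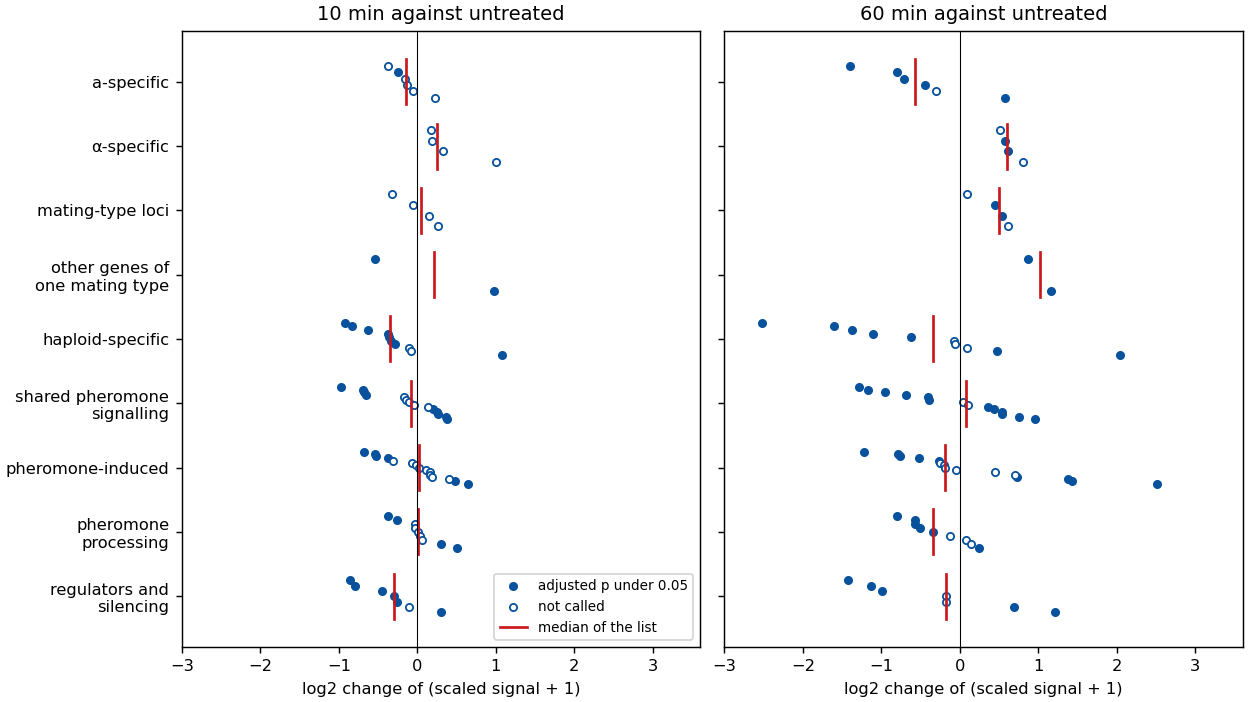
Log2 change of scaled signal plus 1 at 10 min (left) and 60 min (right) of rapamycin against untreated wild type for each gene of 9 lists, with the list median as a red line. Filled points were called by limma at an adjusted p under 0.05. Most lists hold genes on both sides of 0.

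Over the 6 wild-type libraries the mean profile of the 6 a-specific genes was compared with every gene tested. Each a-specific gene was set against the mean of the other 5, since a mean that holds the gene itself raises its correlation. STE2 (r = 0.922), STE6 (0.852) and MFA2 (0.783) were closest, BAR1 was at 0.577 and AGA2 at 0.305, and MFA1 ran against the others (-0.830). STE3 (-0.986) and SAG1 (-0.866) ran against the mean of all 6. The genes outside the members with the highest correlation were PCF11 (0.996), FCY1 (0.996), VMA9 (0.995), ERP4 (0.995) and PUS2 (0.994). Of 6127 genes, 1081 had a correlation of at least 0.9, so the profile was one shared by many genes. The points share only 3 conditions of 2 libraries each, and these values are a description. They hold for the deposited scaling, on which the direction of several a-specific genes rested, and are not given for other scalings.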

How the data were processed

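The authors deposited a table of scaled signal per gene for the 8 libraries, mapped to sacCer3 with TopHat and Bowtie, per the submitters' processing notes. Versions, the choice of scaling and how reads were summed over a gene are not given in the sources used here. Without a known depth, values carry no counting interval. The table's 8 unscaled columns, named by group without a replicate, were left out. The deposited gene models (other: exon coordinates) gave strand. Positions in the table match R64 for 98.2% of 5449 names. HIS3 and RPA14 were not analysed here.

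Columns were assigned to groups by name. They carry library numbers but no replicate numbers. Wild-type comparisons were fitted to log2(scaled signal + 1) with limma (version 3.58.1, R 4.3.3), its variance following an intensity trend, over the 6127 genes averaging at least 1, all 6 libraries in one fit, with Benjamini-Hochberg adjustment over all genes and calls under 0.05. On simulated data with 200 changed genes, the 60 min comparison recovered 85.1% of 67 genes changed 2-fold and 53.7% of 67 changed 1.5-fold. In the data far more genes were called at 60 min (77.1%), so these shares do not give the recovery there. The prp4-1 comparisons had no test. Alternatives were pseudocounts of 0.5 and 5, other filters and scalings, no trend, only 2 groups, and leaving out each library.

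The members and lists were chosen with earlier results of these data known. All members were named, along with, from each list and time, the 2 called genes with the largest rise and the 2 with the largest fall, the 5 closest profiles and the 5 widest strain gaps in each direction. FUS1, AGA1 and FIG1 in the strain comparisons, PRM1 in the prp4-1 pair and the operator genes SWC5 and PBP2 were named after their values were seen. Sequences are from R64, read with Biopython 1.88. The upstream stretch of MF(ALPHA)2 is not reported here.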

Additional observations from a re-analysis of the deposited data

How the results depend on the processing

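No paired analysis was possible because the columns carry library numbers that the labels tie to no replicate number. Scaling each library to the same total shifted the median gene by 0.21 (10 min), 0.66 (60 min) and 0.45 (60 against 10 min). It turned STE2 (0.24, limma adjusted p = 0.0320) and AGA2 (0.37, 0.0399) at 60 min and STE2 between 10 and 60 min (0.27, 0.0215). Under it, a-specific genes were 1 higher and 0 lower at 10 min, 3 higher and 1 lower at 60 min and 3 higher and 2 lower between 10 and 60 min. Alpha-specific genes had 1 higher at 10 min. Over all genes it gave 2560 higher and 1149 lower at 10 min, 4003 and 1121 at 60 min, and 3781 and 908 between 10 and 60 min. With only the 2 groups compared, 0 a-specific genes were lower at 10 min. With a mean of at least 10, 1 alpha-specific gene was higher between 10 and 60 min. In the prp4-1 pair, a-specific genes at least 2-fold lower numbered 0 with a pseudocount of 5 and 1 with equal totals. The causes of these turned signs and changed counts were not tested. Leaving out 1 library, a-specific genes at 10 min ranged from 0 to 1 higher and 0 to 2 lower, and alpha-specific genes higher from 0 to 1 at 10 min, 1 to 2 at 60 min and 1 to 2 between 10 and 60 min. Where this leaves a group with 1 library, it is assumed to vary like the others. Median-of-ratios factors and a fit without the trend left every member's sign and call in the rapamycin comparisons as reported. With 2 libraries a group and unknown depth, small changes such as that of STE2 at 10 min are at the limit of the data.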
